A study of Mus musculus with 6 samples.

Results

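The interleukin-6 family of cytokines, its receptors and the feedback inhibitor Socs3 were followed in whole aortas as 10 genes of the 18749 in the deposited tables, chosen by name. The 5 cytokines were Il6, Lif, Osm, Il11 and Clcf1, the 4 receptor chains Il6ra, Osmr, Lifr and Il6st, and all 10 genes passed the filter on low counts. The aortas came from mice that lack apolipoprotein E (Apoe-/-) and had been infused with angiotensin II (Ang II) for 28 days. The recipients were given either Apoe-/- bone marrow (control recipients, 3 libraries) or Apoe-/-Sept2C111A bone marrow (Sept2C111A recipients, 3 libraries), so that both groups shared the Apoe-/- background and the infusion. Sept2C111A is, by its name, a septin-2 with a cysteine exchanged for alanine, and the series title concerns S-nitrosylated septin-2 of macrophages in aortic aneurysm. Marrow transfer changes the genotype of blood-derived cells, while smooth muscle, fibroblasts and endothelium of the wall are those of the recipient.

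Cytokines of this family signal through Il6st, the shared chain gp130. Interleukin-6 and interleukin-11 first bind a private receptor, Il6ra or an interleukin-11 receptor, and then gp130, while LIF, oncostatin M and the Clcf1 product bring gp130 together with the LIF receptor or, for oncostatin M, the Osmr chain. The paired chains activate JAK kinases and the transcription factor STAT3, and STAT3 induces Socs3, which shuts the receptor down. In the vessel wall, interleukin-6 and LIF can come from smooth muscle, fibroblasts and leukocytes, and oncostatin M mainly from neutrophils, macrophages and T cells.

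Promoters are shown for 3 cytokine genes that were highest in the same library and for gp130, whose level was nearly even. RefSeq promoter windows (build GRCm38.p6, the same genome as mm10) were found for 8 of the 10 members, and for Clcf1 and Osm none was used here. The bases before each start are printed 5′ to 3′ on the gene's strand, shortened where the window ran into an annotated exon. Capitals mark letters that match AP-1 (TGANTCA), NF-kB (GGNNTTTCC), STAT (TTCNNNGAA), CRE (TGACGTCA) or C/EBP (TTGCNNAA) motifs, searched on both strands. The Il6 stretch is chr5:30012864-30013113 (plus strand), that of Lif chr11:4257318-4257556 (plus strand), that of the inner Il11 start chr7:4778142-4778391 (minus strand) and that of Il6st chr13:112463820-112464069 (plus strand).
Il6: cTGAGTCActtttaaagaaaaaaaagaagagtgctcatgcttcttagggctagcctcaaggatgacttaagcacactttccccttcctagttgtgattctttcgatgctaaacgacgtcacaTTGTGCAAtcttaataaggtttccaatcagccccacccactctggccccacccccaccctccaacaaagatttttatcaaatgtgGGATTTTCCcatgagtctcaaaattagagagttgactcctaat
Lif: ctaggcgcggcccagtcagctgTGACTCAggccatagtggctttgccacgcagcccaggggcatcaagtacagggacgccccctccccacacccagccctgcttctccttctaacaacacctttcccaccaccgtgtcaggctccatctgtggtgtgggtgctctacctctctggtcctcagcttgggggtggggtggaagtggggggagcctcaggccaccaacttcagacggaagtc
Il11: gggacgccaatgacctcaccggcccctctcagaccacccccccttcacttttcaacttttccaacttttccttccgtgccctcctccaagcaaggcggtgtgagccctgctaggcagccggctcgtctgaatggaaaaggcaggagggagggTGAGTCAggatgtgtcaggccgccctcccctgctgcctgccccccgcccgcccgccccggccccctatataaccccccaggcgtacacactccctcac
Il6st: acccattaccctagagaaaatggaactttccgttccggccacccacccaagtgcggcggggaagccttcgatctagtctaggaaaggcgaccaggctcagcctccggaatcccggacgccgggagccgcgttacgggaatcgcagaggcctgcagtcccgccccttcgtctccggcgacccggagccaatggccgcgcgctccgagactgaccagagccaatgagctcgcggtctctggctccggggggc
The Il6 stretch held an AP-1 match, a C/EBP match and an NF-kB match that begin 249, 128 and 43 bases before the start. AP-1 matches began 228 bases before the Lif start and 98 bases before the inner Il11 start. Il6st and the window of the outer Il11 start, not printed, held none of the 5 motifs. The windows of Il6ra, Osmr and Lifr, not printed either, also held none, and that of Osmr lay within annotated exon. The Socs3 window, not printed, held a STAT match that begins 154 bases before the start. Il6ra, Osmr and Socs3 were, like the 3 cytokines shown, highest in control 1. Among 32851 RefSeq windows of 250 bases, 6.75% held the AP-1 letters, 4.93% the NF-kB letters, 9.56% the C/EBP letters, 7.02% the STAT letters and 1.55% the CRE letters. A match describes letters in a window and does not show that a factor binds there.

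Levels are CPM, read counts scaled to TMM-adjusted library size, and each log2 fold change is Sept2C111A recipients minus control recipients. Library totals ran from 17082719 to 20494928 expected counts. Genes were tested with edgeR's quasi-likelihood test and, as an alternative, with DESeq2, both adjusted over all genes tested, with adjusted p under 0.05 as the threshold. edgeR called 0 of 14466 genes (0%) and so 0 of the 10 members. At an unadjusted p under 0.05 it gave 2170 genes (15%) and 4 members, Lif, Osm, Il6ra and Socs3. DESeq2 called 2.9% of genes lower and 1.1% higher in Sept2C111A recipients. Of the members it called 1 lower, Lif, and 0 higher, while for Osm and Il11 it withheld the adjusted p because of an outlying count. Nothing in the labels says how the mice were batched, and the p-values weigh each group difference against the spread between these samples. In whole tissue, fewer cells of a type and less RNA per cell cannot be told apart.

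The library of control recipient 1 stood apart before any group was compared. Its 10 neutrophil markers summed to 2918 CPM, against 89.4 and 333 CPM in controls 2 and 3 and 16.7 to 28.8 CPM in Sept2C111A recipients. All 7 neutrophil markers that passed the filter were lower in Sept2C111A recipients, while Camp, Ngp and Ly6g were near 0. Retnlg, Mmp8 and Ltf had fewer than 10 reads in every Sept2C111A library and passed through the controls alone. Their direction was therefore largely fixed by the filter. The 10 monocyte and macrophage markers summed to between 2518 and 3444 CPM in controls and between 1548 and 2391 CPM in Sept2C111A recipients. Of these, 9 were lower and 1, Mrc1, higher in Sept2C111A recipients, and 3 were lower without overlap, against 11.9% of all genes. Control 1 was highest for 4 of them, among them Itgam (985 CPM) and Cd14 (477 CPM). It was the lowest library for Adgre1 (54.3 CPM), Csf1r (144 CPM) and C1qa (119 CPM). The 5 platelet markers ran from 104 to 345 CPM and from 43.7 to 55.1 CPM, and the 5 erythroid markers from 70.6 to 1683 CPM and from 202 to 708 CPM. The 7 fibroblast markers ran from 3522 to 4225 CPM and from 5974 to 8069 CPM. The 6 smooth muscle markers stood at 5671 CPM in control 3 and between 15173 and 22837 CPM in the other 5 libraries, so the defining markers of the aortic media were present in all of them. The 5 adipocyte markers ran from 651 to 2215 CPM and from 1384 to 2874 CPM, and the 5 mast cell markers from 32.8 to 39.6 and from 33.0 to 61.8 CPM. B cell markers (4 found) were at 8.31 to 28.7 and 1.78 to 7.04 CPM, and T cell markers (5 found) at 6.89 to 13.9 and 3.65 to 17.8 CPM. Endothelial markers (5) ran from 604 to 1115 and from 533 to 1229 CPM, and Schwann cell markers (4) from 34.8 to 78.1 and from 27.2 to 38.8 CPM. The 3 skeletal muscle markers stood at 46.8 CPM in Sept2C111A recipient 3, mostly from Ckm (45.3 CPM), and between 1.37 and 4.13 CPM in the other 5 libraries. The part of these cell types in the differences below was not tested.

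Among the cytokines, Osm, which encodes oncostatin M (chromosome 11, 4236420 to 4241026), showed the widest range. It was at 204, 4.63 and 6.28 CPM in controls 1, 2 and 3 and at 1.26, 1.60 and 0.83 CPM in Sept2C111A recipients 1, 2 and 3. Every control library lay above every Sept2C111A library, and control 1 was 32.5 times the next highest. In reads, the controls held 3655, 88 and 127 and the Sept2C111A recipients 24, 29 and 15. The log2 fold change of Osm was -5.85 (SE 1.73, adjusted p = 0.316 by edgeR), from means of 71.6 ± 115 and 1.23 ± 0.38 CPM (SD, n = 3 each). Without control 1 it was -2.13 (SE 0.38), edgeR gave an adjusted p of 0.383, and DESeq2 called Osm lower (adjusted p = 0.000764). Osm was then the single member called, where 1.9% of all genes were called lower. Without control 1 the median of the neutrophil markers was -2.64 (log2), with all 7 tested members lower. Retnlg, Mmp8 and Ltf again passed the filter through the controls alone. This direction was not particular to neutrophils. Platelet markers were lower for 5 of 5 (median -1.57), B cell for 4 of 4 (-1.27), erythroid for 5 of 5 (-0.61) and monocyte and macrophage for 9 of 10 (-0.51). Smooth muscle markers were higher for 6 of 6, adipocyte for 5 of 5 and fibroblast for 6 of 7. The part of any cell type in the Osm difference was not tested.

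Lif, which encodes leukemia inhibitory factor (chromosome 11, 4257557 to 4272514), lies 16.5 kb from Osm on the same strand. It was at 43.3, 7.52 and 25.7 CPM in controls 1, 2 and 3 and at 3.47, 5.91 and 4.06 CPM in Sept2C111A recipients 1, 2 and 3. The groups did not overlap, but control 2 lay close to the highest Sept2C111A library. For Lif control 1 was 1.685 times control 3, against 32.5 times for Osm. Its log2 fold change was -2.51 (SE 0.63), with an adjusted p of 0.316 by edgeR and 0.00482 by DESeq2. Without control 1 the log2 fold change was -1.88 and the DESeq2 call was lost (adjusted p = 0.0640). DESeq2 called Lif in 3 of 6 fits that each left out 1 library. The call was lost without Sept2C111A recipient 1 (adjusted p = 0.0723) and without Sept2C111A recipient 3 (adjusted p = 0.0901) too.

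Il6 itself (chromosome 5, 30013114 to 30019981) was at 83.7, 3.26 and 7.57 CPM in the 3 controls and at 3.15, 6.91 and 3.50 CPM in the Sept2C111A recipients. Control 1 was 11.1 times the next highest library, and the other 5 libraries of both groups were intermingled. The log2 fold change of -2.80 (SE 1.22) had an edgeR adjusted p of 0.346 and became -0.25 (SE 0.53) without control 1. Il11, a cytokine tied to fibrosis (chromosome 7, 4772373 to 4782859), showed the same arrangement. It was at 49.3, 3.58 and 2.82 CPM in controls and at 1.42, 6.02 and 1.22 CPM in Sept2C111A recipients. Sept2C111A recipient 2 thus lay above controls 2 and 3, and the log2 fold change of -2.68 (SE 1.3) was -0.14 (SE 0.78) without control 1. Clcf1, the cardiotrophin-like cytokine (chromosome 19, 4214238 to 4223490), was at 45.4, 17.5 and 16.5 CPM and at 8.51, 22.2 and 9.12 CPM. Sept2C111A recipient 2 was again above controls 2 and 3, and the log2 fold change was -0.99 (SE 0.55), or -0.34 (SE 0.46) without control 1. Clcf1 overlaps 2 other annotated genes, 1 of them on its own strand, so its counts are uncertain.

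**Figure D1:**
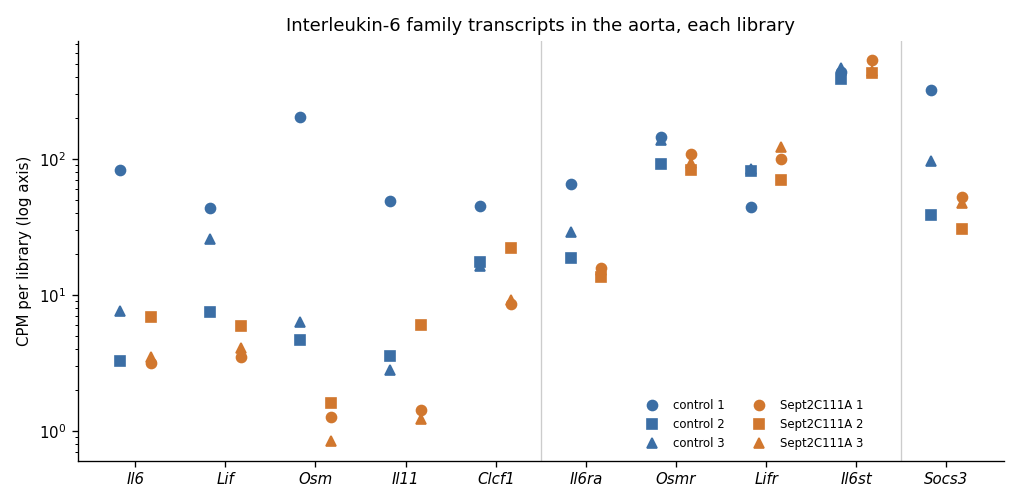
CPM of each member (log axis) in each library, with cytokines on the left, receptor chains in the middle and Socs3 on the right; blue points are control recipients and orange points Sept2C111A recipients. Control 1 (blue circle) is the highest library for all 5 cytokines, Il6ra, Osmr and Socs3, and the groups are separate for Lif, Osm and Il6ra.

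None of the 4 receptor chains passed either test with all libraries. Il6ra, the private interleukin-6 receptor (chromosome 3, 89864059 to 89913196), was at 65.3, 18.6 and 29.0 CPM in controls 1, 2 and 3. It was at 15.8, 13.5 and 15.3 CPM in Sept2C111A recipients, a narrow spread that lay wholly below the controls. Its log2 fold change was -1.34 (SE 0.45), with an adjusted p of 0.316 by edgeR and 0.0829 by DESeq2, and it was -0.67 (SE 0.22) without control 1. Il6ra is known from leukocytes and hepatocytes, and it overlaps an annotated gene on the opposite strand. Osmr, the oncostatin M receptor chain of fibroblasts and smooth muscle (chromosome 15, 6813577 to 6874969), was at 145, 91.8 and 138 CPM and at 109.7, 82.7 and 93.2 CPM. The groups overlapped, with a log2 fold change of -0.39 (SE 0.21).

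Il6st and Lifr were the 2 members with a higher mean in Sept2C111A recipients, and neither passed a test. Il6st, gp130 (chromosome 13, 112464070 to 112510086), was at 436, 388 and 473 CPM in controls and at 539.8, 429 and 449 CPM in Sept2C111A recipients. Its highest library was 1.39 times its lowest, the narrowest range of the 10 members. The log2 fold change was 0.13, with a 95% interval from -0.30 to 0.56. Lifr, the LIF receptor (chromosome 15, 7090614 to 7197489), was at 44.7, 81.2 and 84.1 CPM and at 100.5, 69.8 and 122 CPM. Control 1, the library richest in the cytokines, was the lowest for Lifr, and the log2 fold change was 0.48 (SE 0.31, adjusted p = 0.458 by edgeR).

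Socs3, the STAT3-induced inhibitor of gp130 (chromosome 11, 117966079 to 117970047), was at 322, 39.0 and 96.2 CPM in controls 1, 2 and 3. It was at 52.6, 30.7 and 47.2 CPM in Sept2C111A recipients, so that control 2 lay within their range. The log2 fold change was -1.81 (SE 0.74), with an adjusted p of 0.331 by edgeR and 0.119 by DESeq2, and -0.62 (SE 0.42) without control 1. Its order across libraries, with control 1 first and control 3 second, was also that of Il6, Lif, Osm, Il6ra and Osmr. The neutrophil marker S100a8 and the platelet marker Pf4 also had control 1 first and control 3 second.

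**Figure D2:**
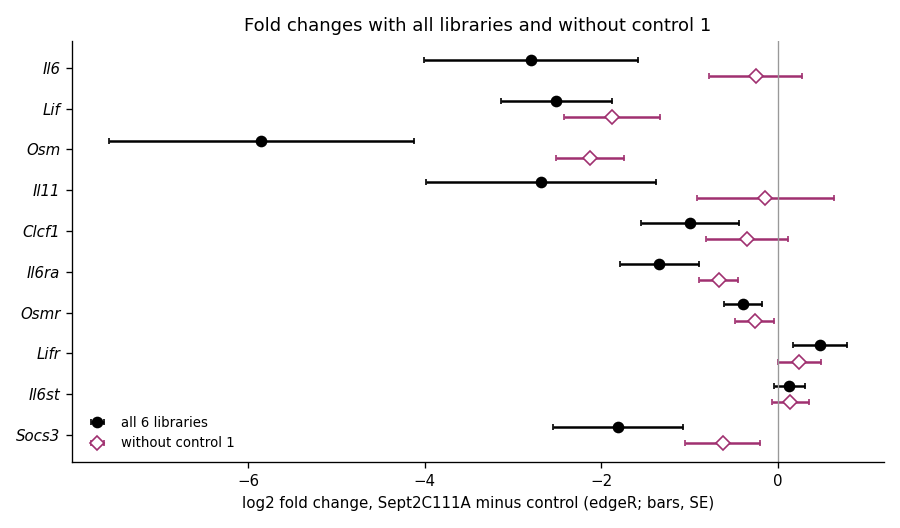
Log2 fold change of each member, Sept2C111A minus control recipients, by edgeR, with SE as bars; filled circles use all 6 libraries and open diamonds leave out control 1. Without control 1 the values of Il6 and Il11 move to -0.25 and -0.14, Osm moves from -5.85 to -2.13 and Lif from -2.51 to -1.88.

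Over the whole list, 8 of the 10 members had a negative log2 fold change and the median was -1.57. Of all genes tested, 49.9% were negative and the median was 0.00. Without control 1 the same number, 8, were lower, but the median was -0.30. The groups did not overlap for 3 members, all lower, where 11.9% of all genes had every Sept2C111A library below every control. No member had every Sept2C111A library above every control, where 11.2% of all genes did. For such a gene an exact two-sided permutation test over 3 against 3 libraries gives p = 0.1, the smallest it can reach. Control 1 was the highest library for 8 of 10 members, against 25% of all genes. Without control 2, DESeq2 called 6 members, all lower, in a fit that called 12% of all genes in either direction. These were Lif, Osm, Il6 (adjusted p = 0.00643), Il6ra (0.00134), Socs3 (0.00149) and Osmr (0.0338). With all controls kept, DESeq2 gave no adjusted p for Osm, in the main fit or in any fit that left out a Sept2C111A library. It gave one in each fit that left out a control, so these numbers of called members are not on a like footing.

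**Figure D3:**
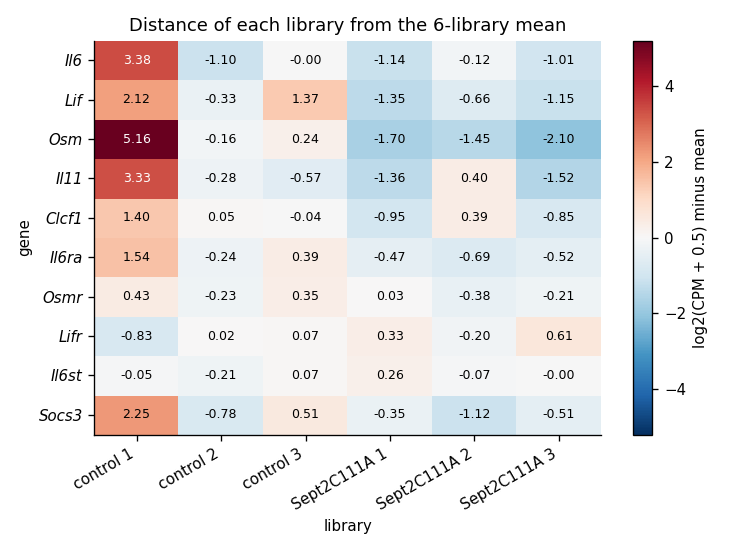
Distance of each library (columns) from the gene's mean over the 6 libraries, on the log2(CPM + 0.5) scale, for each member (rows). Control 1 stands 5.16 above the mean for Osm and 3.38 for Il6 but 0.05 below it for Il6st and 0.83 below it for Lifr.

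Per kilobase of annotated exon, levels can be compared between genes, although the exon union overstates the length of genes with long alternative exons. In Sept2C111A recipients Il6st led at 42.6 ± 5.32 CPM per kilobase, followed by Socs3 at 15.0 ± 3.95. Lifr at 9.05 ± 2.44 and Osmr at 7.86 ± 1.12 CPM per kilobase did not differ beyond their spread. Clcf1 followed at 3.49 ± 2.03, then Il6 at 1.86 ± 0.85, Il6ra at 1.72 ± 0.14, Il11 at 1.39 ± 1.31 and Lif at 1.03 ± 0.29. The intervals of mean ± SD of neighbours in this run overlapped. Osm was last at 0.54 ± 0.17 CPM per kilobase (SD, n = 3 throughout). Il6st thus stood above every cytokine in each Sept2C111A library. In control 1 the order was different: Socs3 was at 111 and Osm at 89.8 CPM per kilobase, above Il6st at 39.3, with Il6 at 34.5 and Il11 at 23.7. In controls 2 and 3 Osm was at 2.04 and 2.76 CPM per kilobase and Il6st at 34.9 and 42.6.

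Genes whose log2 levels followed a cytokine most closely over the 6 libraries were picked by Pearson correlation among genes with a mean count of at least 50. Control 1 was the highest library for each of the 5 cytokines, and a single high library weighs heavily in a correlation over 6 points. For Il6 the 3 were Rpf2, Ccl2 and Med7, with r from 0.993 to 0.999. Ccl2, the chemokine that draws monocytes, was at 410 CPM in control 1 and between 7.20 and 18.2 CPM elsewhere. For Lif they were Zfp207, Tab2 and Vdr, and Vdr, the vitamin D receptor, was at 41.7, 5.36 and 19.4 CPM in controls and between 2.68 and 3.65 CPM in Sept2C111A recipients. For Osm they were Psmd14, Utp14a and C5ar1, and C5ar1, the complement C5a receptor of myeloid cells, was at 278, 37.5 and 49.3 CPM in controls and between 18.5 and 24.3 CPM in Sept2C111A recipients. For Il11 they were Flrt3, Snapc1 and Atp11b, and for Clcf1 they were Naa50, Ctdp1 and Ssb. The genes ranked first for Il6, Lif and Osm had narrower ranges than Ccl2, Vdr and C5ar1. Rpf2 was at 23.2 CPM in control 1 and between 11.0 and 13.1 CPM elsewhere. Zfp207 was at 155 CPM in control 1 and between 106 and 141 CPM elsewhere, and Psmd14 at 90.1 and between 55.6 and 65.5 CPM.

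The other genes of the pathway came from 6 lists with 63 entries, all with a row in the tables. Of 5 other receptor chains, 5 were higher in Sept2C111A recipients, where 49.9% of all genes were lower. DESeq2 called 1 of the 5 higher, where it called 1.1% of all genes higher. This was Il11ra1, the interleukin-11 receptor. It was at 210.3, 293 and 172 CPM in controls and at 375, 385 and 461 CPM in Sept2C111A recipients, without overlap. Its log2 fold change was 0.85 (SE 0.24), with an adjusted p of 0.316 by edgeR and 0.0299 by DESeq2, and the DESeq2 call was lost without control 1 (0.81, adjusted p = 0.129). Il11ra1 shares reads with its near copy Il11ra2, at 0.79 to 4.73 CPM, so both values are uncertain. The fibroblast markers, which were higher in Sept2C111A recipients for 7 of 7 genes, had the same direction, as did 6 of 6 smooth muscle, 5 of 5 adipocyte and 4 of 5 mast cell markers. Their part in the Il11ra1 difference was not tested. Cntfr, the ciliary neurotrophic factor receptor, was at 6.18 ± 2.20 and 10.4 ± 5.95 CPM.

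Of 9 other ligands and related genes, 5 passed the filter, 4 with a lower mean and 1 with a higher one, and DESeq2 called 0. Crlf3 was at 29.7 ± 2.56 and 22.9 ± 1.21 CPM. Il31 had no read in any library, and Il27, Ctf2 and Il12a did not pass the filter.

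Among 10 JAK and STAT signalling genes, 6 were lower and 4 higher, with a median of -0.16 (log2) and 0 called by DESeq2. Stat3, the main transducer, was at 356, 207 and 224 CPM in controls and at 195, 231 and 161 CPM in Sept2C111A recipients, and Ptpn11, the phosphatase SHP2, at 194 ± 34.9 and 221 ± 23.0 CPM. Jak2, named after its values were seen, was at 269, 67.4 and 76.9 CPM in controls and between 56.2 and 58.1 CPM in Sept2C111A recipients. Of 11 feedback inhibitors, 6 were lower and 5 higher (3 and 8 without control 1). DESeq2 called 1 of the 11, Ptprc, lower, where it called 2.9% of all genes lower. Ptprc encodes CD45, the phosphatase of all leukocytes, and was at 176, 83.3 and 109 CPM and at 72.6, 43.0 and 45.5 CPM. Its log2 fold change of -1.20 (DESeq2 adjusted p = 0.0389) was -0.83 (adjusted p = 0.148) without control 1. Socs5, a Socs3 relative, was at 49.7 ± 10.7 and 51.3 ± 8.47 CPM.

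Of 20 textbook STAT3 targets, 17 were lower, at a median of -0.71 (log2), where 49.9% of all genes were lower. Without control 1 it was 12 of 20, at a median of -0.03. Control 1 was the highest library for 15 of the 20, against 25% of all genes. Whether STAT3 drives these genes in the aorta was not tested. DESeq2 called 3 of the list lower and 0 higher, where it called 2.9% of all genes lower and 1.1% higher. For another 3, Pim1, Lcn2 and Ccl2, it withheld the adjusted p because of an outlying count. Il4ra, the interleukin-4 receptor chain, was at 568, 142 and 345 CPM in controls and at 103, 67.7 and 77.3 CPM in Sept2C111A recipients (log2 fold change -2.09, DESeq2 adjusted p = 0.00326). It was the single gene of this list DESeq2 still called without control 1, at -1.55 (adjusted p = 0.0284), where 1.9% of all genes were called lower. Timp1, the metalloproteinase inhibitor, was at 749.7, 184 and 494 CPM and at 95.6, 158 and 51.3 CPM. Myc, the growth regulator, was at 36.7, 16.3 and 32.4 CPM and at 12.6, 11.3 and 10.4 CPM. Timp1 and Myc were no longer called without control 1 (DESeq2 adjusted p = 0.0984 and 0.0881). All 3 shared with Lif the order of control 1, control 3 and control 2, above every Sept2C111A library. This order was not particular to the pathway, as the neutrophil marker S100a8 and the platelet marker Pf4 showed it too. Of the most abundant targets, Hp, haptoglobin, was at 2583, 522 and 446 CPM and at 1019, 655 and 453 CPM, and Mcl1, a survival factor, at 1019.9, 357 and 388 CPM and at 359.7, 391 and 331 CPM.

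**Figure D4:**
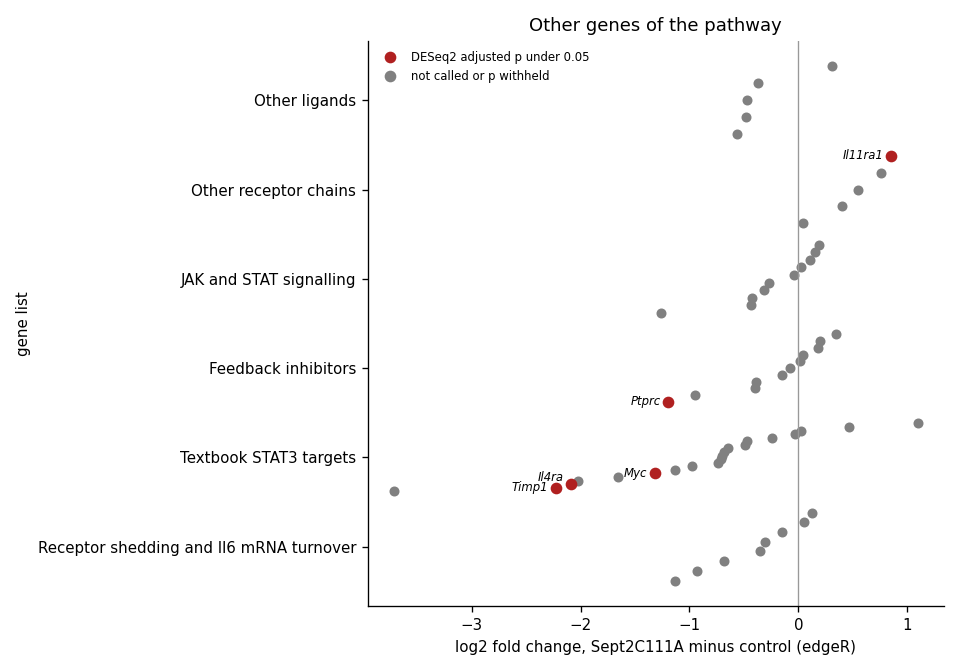
Log2 fold change by edgeR of each tested gene (point) in 6 lists of other pathway genes (rows), with genes called by DESeq2 in red and named. Il11ra1 at 0.85 is the single red point above 0, and Ptprc, Myc, Il4ra and Timp1 lie between -1.20 and -2.23.

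Of 8 genes for receptor shedding and Il6 mRNA turnover, 6 were lower and 2 higher, and DESeq2 called 0. Without control 1 it called 1 lower, Rhbdf2, where 1.9% of all genes were called lower. Rhbdf2, a cofactor of the shedding protease Adam17, was at 81.8, 31.7 and 37.4 CPM in controls and between 21.2 and 23.8 CPM in Sept2C111A recipients. Adam10, a protease that can release the soluble interleukin-6 receptor, was at 204, 127 and 213 CPM and at 123, 103 and 113 CPM. Its log2 fold change was -0.68 (SE 0.22, adjusted p = 0.316 by edgeR), with the groups separate. Zfp36, which promotes decay of cytokine mRNA, was at 172 ± 26.7 and 139 ± 7.47 CPM.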

How the data were processed

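Polyadenylated RNA of whole aortas was sequenced from 6 mice, per the labels' protocols. The authors deposited expected counts per gene, not normalised, 1 file per library, made with Bowtie2 and RSEM 1.3.1 on mm10 per the submitters' processing notes, which also list DESeq2 1.4.5. Annotation, read filters and strandedness are not stated in these sources, and RSEM divides reads shared by similar genes. In 1 Sept2C111A file the column heading carried another library number, and GEO's record of the sample was followed. Expected counts were rounded and filtered with filterByExpr (minimum count 10), which left 14466 of 18749 genes.

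Libraries were scaled by TMM and tested with edgeR 4.0.16 (R 4.3.3, quasi-likelihood F test, two-sided, group as the single factor, Benjamini-Hochberg adjustment). DESeq2 1.42.0, RLE scaling, no filter, the sample number as a block and leaving out each library were alternatives. The SE of a fold change was derived from its F value. Scripts were tested on simulated data. Gene positions and exon lengths came from GENCODE vM21. All 10 members are named, and of each pathway list the 2 most abundant genes and any called gene, 1 of which is not reported here. The members and lists were chosen with earlier results of these data known. Replicates of a group differed beyond sampling noise (chi-square per degree of freedom from 43.8 to 208), more than repeat copies of the same library would, which does not show that they came from separate mice.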

Additional observations from a re-analysis of the deposited data

How the results depend on the processing

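edgeR called 0 genes under RLE scaling, without the filter, with the replicate block and with each of the 6 libraries left out in turn, with a smallest adjusted p from 0.0814 to 0.683, while DESeq2 called 575 genes. Leaving out 1 library moved that number between 133 (without Sept2C111A recipient 3) and 1769 (without control 2). The number of members called ran from 0 (without Sept2C111A recipient 1 or 3) to 6 (without control 2). The fit without control 2 called 12% of all genes in either direction. DESeq2 gave no adjusted p for Osm in any fit that left out a Sept2C111A recipient, so Osm could not be called there. It called Osm lower in each fit that left out a control. Without DESeq2's outlier filter, an alternative chosen after seeing the data, 605 genes and 2 members were called, Lif and Osm (adjusted p = 0.00659). The members' median log2 fold change ran from -1.96 without control 2 to -0.30 without control 1. It was -1.23 with the replicate block, and the block changed no edgeR call. The labels do not say whether the sample numbers pair the mice. Deviations of same-numbered libraries correlated at 0.02, 0.13 and -0.17, which cannot settle that question. No member changed sign in any alternative. Of the other named genes, Socs5 ran from -0.094 to 0.24 over the fits that left out a library, below 0 without control 2, without control 3 and without Sept2C111A recipient 2, and Hp from -1.13 to 0.56, above 0 without control 1. With 15 to 29 reads of Osm in each Sept2C111A library, counting error adds to the spread of its low values.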
